A study of Mus musculus with 6 samples.

Results

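Transcripts of 37 DNA repair genes were measured in splenic B cells after stimulation of Toll-like receptor 7 (TLR7), an endosomal sensor of RNA. The genes were picked by symbol from a list of repair factors, and all 37 were found among the 23420 genes of each library. Of these, 36 passed the filter on low values, as did 11844 genes in all. They were divided by textbook function into base excision (12 genes), mismatch (5), translesion synthesis (2), end joining (8), break sensing and checkpoint (7) and recombination (3).

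The study compared 3 CL097 libraries with 3 unstimulated libraries. CL097 is a small imidazoquinoline that activates TLR7, and it was given at 5 µg/ml for 4 h, while the unstimulated cells received no agonist. Every library, stimulated or not, came from TLR9-/- MRL/lpr mice with wild-type Tlr7, a lupus-prone strain that lacks a working Fas receptor, and the mice were males aged 5 to 7 weeks. The B cells were isolated from spleen with beads by removal of other cells, while libraries from TLR9-sufficient mice were not analysed here.

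Repair pathways have a particular place in B cells, because these cells introduce mutations and breaks into their own immunoglobulin genes. Uracil in DNA is removed by base excision or its mispair is recognized by mismatch repair, and error-prone polymerases copy across the gap during somatic hypermutation. Breaks are joined by end joining during class switching, while homologous recombination serves mainly cells that have copied their DNA.

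Values are CPM, read counts scaled to the size of the library, obtained from the deposited log2 CPM. The authors quantile-normalized them, which gives the libraries nearly the same distribution of values. Log2 fold changes are CL097 minus unstimulated, from limma fitted over all 11844 genes without pairing by replicate number. They are given with their standard error (SE) and an adjusted p (Benjamini-Hochberg over all genes). Calling a gene took an adjusted p below 0.05 together with a log2 fold change beyond 0.5 in either direction. Between 10906 and 10997 genes per library reached 1 CPM, and the read depth is unknown. After that normalization, similar counts do not show that the libraries were alike before it. Of 8 B cell markers 6 were called lower and 0 higher, with a summed level of 2715 to 3211 CPM in CL097 and 6399 to 7289 CPM in unstimulated libraries. Of 6 monocyte and macrophage genes 1 was lower and 0 higher, against 5 lower in a fit with the replicate block, with sums of 406 to 601 CPM in CL097 and 702 to 1026 CPM in unstimulated libraries. Of 4 plasma cell genes 3 were lower, with sums of 147 to 163 CPM in CL097 and 362 to 390 CPM in unstimulated libraries. Of 4 tested T cell genes 2 were higher, with a median log2 fold change of 1.64 and list sums of 49.9 to 92.1 CPM in CL097 and 46.5 to 68.8 CPM in unstimulated libraries. These were Cd8a, at 1.17 to 2.19 CPM in CL097 and 0.0384 to 0.455 CPM in unstimulated libraries, and Cd8b1, with a log2 fold change of 2.71 (SE 0.55, limma adjusted p = 0.00325). Lck made up most of the sums, and Cd3e, Cd3d and Cd3g, which did not pass the filter, lay between 0.0269 and 0.589 CPM in CL097 and between 0.164 and 0.491 CPM in unstimulated libraries. Neutrophil genes summed to 3.41 to 8.50 CPM in CL097 and 2.55 to 10.2 CPM in unstimulated libraries, and NK cell genes to 2.10 to 3.30 CPM in CL097 and 2.66 to 4.77 CPM in unstimulated libraries. Number 1 stood apart in both groups by its low erythroid genes, given with the recombination genes, and was also lowest in several monocyte and macrophage genes. Lyz2 had 16.3, 41.0 and 58.2 CPM in CL097 libraries 1 to 3 and 39.8, 128 and 189 CPM in unstimulated libraries. Mpeg1, the largest part of those sums, was lowest in number 1 only with CL097. Lck was highest in number 1 of both groups, at 88.3 CPM in CL097 and 67.2 CPM in unstimulated libraries. The part of all these marker genes in the values below was not tested, and in bulk RNA fewer cells of a type and less RNA per cell cannot be told apart.

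Of the 36 repair genes tested, 12 were called higher and 6 lower in CL097 libraries. The called share was 50%, beside 47.6% of all genes tested. Over all genes 24.0% were called higher and 23.6% lower, and the list itself was not tested. Their median log2 fold change was 0.19, against 0.002 for all genes. For 23 of the 36 genes the 3 CL097 values and the 3 unstimulated values did not overlap, a separation seen in 65.8% of all genes. The changes ran in both directions within base excision, mismatch and end joining. They spanned Ung, the largest increase, and Neil1, the largest decrease, which both belong to base excision.

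**Figure D1:**
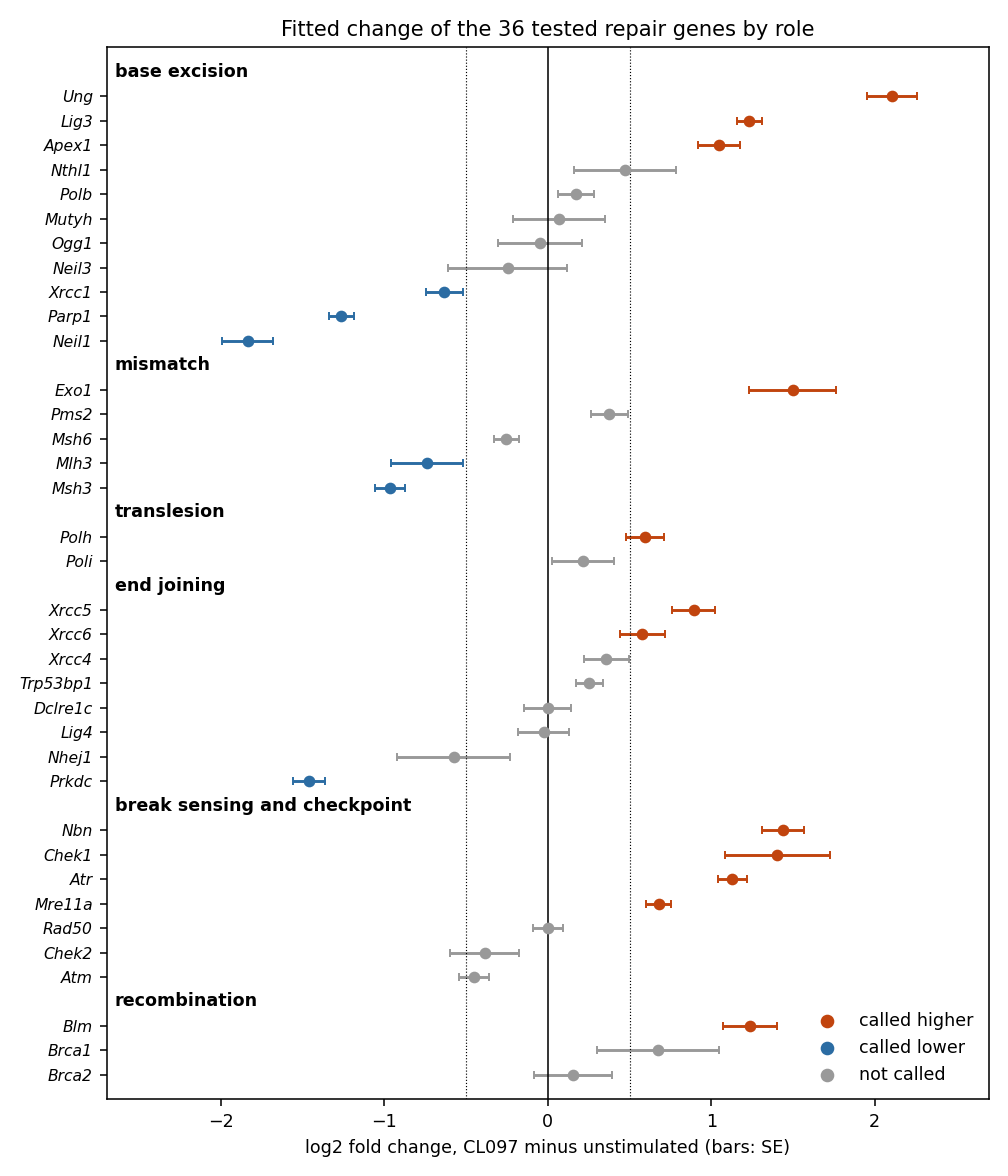
Log2 fold change (CL097 minus unstimulated) of the 36 tested repair genes, grouped by role, with bars for the SE, and dotted lines at the fold limit of 0.5. Genes called higher, called lower and not called have different colours; base excision runs from 2.11 for Ung to -1.84 for Neil1.

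In base excision, 3 of 11 tested genes rose, 3 fell and 5 were not called, with a median log2 fold change of 0.07. Exon counts and exon lengths given here pool all annotated transcripts of a gene, so both can exceed those of any single transcript. Ung (chr5:114130386-114139323, plus strand, 16 exons), the glycosylase that cuts uracil out of DNA, had 52.6, 50.9 and 47.6 CPM in CL097 libraries 1 to 3, against 14.5, 10.6 and 10.4 CPM in unstimulated libraries. The lowest CL097 value lay far above the highest unstimulated one. Its level was 50.4 ± 2.56 CPM in CL097 and 11.8 ± 2.33 CPM in unstimulated libraries (SD, n = 3 each), a 4.30-fold increase (log2 fold change 2.11, SE 0.15, limma adjusted p = 1.13e-05). Apex1 (chr14:50924968-50927139, plus strand, 11 exons), the endonuclease that nicks DNA at the site where a base is missing, had 69.1, 58.6 and 55.2 CPM in CL097 libraries and 31.1, 25.4 and 32.1 CPM in unstimulated libraries. Again the groups did not overlap. The mean was 61.0 ± 7.24 CPM in CL097 and 29.5 ± 3.65 CPM in unstimulated libraries (log2 fold change 1.05, SE 0.13, limma adjusted p = 0.000222). Of the Apex1 exons, 61.7% of the length overlaps Pip4p1 on the other strand, listed as Tmem55b in the data. Tmem55b fell by 0.56 on the log2 scale (SE 0.15, adjusted p = 0.0107), the opposite direction, and since the strand setting of the counting is not given, reads of the overlap cannot be told apart.

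The glycosylases for oxidized bases gave another picture. Neil1 (chr9:57142800-57148305, minus strand, 14 exons), which removes oxidized pyrimidines, had 19.8, 13.8 and 16.0 CPM in CL097 libraries and 63.4, 61.6 and 51.2 CPM in unstimulated libraries. Every CL097 library held less than every unstimulated one. The mean was 16.6 ± 3.03 CPM in CL097 and 58.7 ± 6.60 CPM in unstimulated libraries, 3.57-fold lower (log2 fold change -1.84, SE 0.15, limma adjusted p = 2.63e-05). Of its relatives, Neil2 did not pass the filter, with 0.0281 to 0.0319 CPM in CL097 and 0.0281 to 0.147 CPM in unstimulated libraries. Neil3, which also acts on oxidized bases, gave 4.91 ± 2.13 CPM in CL097 and 5.44 ± 0.939 CPM in unstimulated libraries and was not called (log2 fold change -0.25, SE 0.36). The glycosylase for 8-oxoguanine, Ogg1, the one for adenine opposite 8-oxoguanine, Mutyh, and Nthl1, which takes out oxidized pyrimidines, averaged between 2.51 and 6.30 CPM in each group. Their log2 fold changes were -0.05 (SE 0.26), 0.07 (SE 0.28) and 0.47 (SE 0.31), none of them called. Per kilobase of exon, Neil1 had 8.85 CPM in CL097 and 31.4 CPM in unstimulated libraries, and Ung had 9.22 CPM in CL097 and 2.17 CPM in unstimulated libraries. On this scale of levels per length the pair lay close together in CL097 libraries, while Neil1 was far above Ung in unstimulated ones. The pooled exon length was 5468 bases for Ung and 1871 for Neil1. Lengths of the transcripts in use are not known, so this ranking depends on that choice.

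Later steps of the pathway split in direction as well. Parp1 (chr1:180568924-180601254, plus strand, 40 exons), which senses nicked DNA and marks the site with poly(ADP-ribose), had 246, 284 and 251 CPM in CL097 libraries and 599, 643 and 629 CPM in unstimulated libraries. The groups were well apart. Its mean was 260 ± 20.8 CPM in CL097 and 624 ± 22.3 CPM in unstimulated libraries, 2.40-fold lower (log2 fold change -1.26, SE 0.08, limma adjusted p = 5.47e-06). Even so, by pooled exon length Parp1 stayed the highest repair gene, at 49.2 CPM per kilobase in CL097 and 118 in unstimulated libraries. Apex1 had 42.9 CPM per kilobase in CL097 on the same scale. Xrcc1, the scaffold that Parp1 activity calls to the nick, fell by 0.63 on the log2 scale (SE 0.12, limma adjusted p = 0.00189), to 37.4 ± 3.00 CPM in CL097, against 58.2 ± 6.80 CPM in unstimulated libraries. Lig3 (chr11:82781108-82804274, plus strand, 47 exons), the ligase that seals the nick and binds Xrcc1, moved the other way, with 153, 169 and 161 CPM in CL097 libraries and 72.3, 68.5 and 65.4 CPM in unstimulated libraries. No CL097 value came near the unstimulated ones. This was a 2.35-fold increase (log2 fold change 1.23, SE 0.08, limma adjusted p = 5.79e-06). Of the Lig3 exons, 25.1% of the length overlaps Rffl on the other strand, which was not called (log2 fold change -0.06, SE 0.21). Polb, the polymerase that fills the gap, was not called (26.4 ± 2.33 CPM in CL097 and 23.4 ± 0.642 CPM in unstimulated libraries, log2 fold change 0.17, SE 0.11). Summed over the 12 genes, base excision took 607 to 662 CPM in CL097 and 878 to 912 CPM in unstimulated libraries, and Parp1 gave more of both sums than any other gene.

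**Figure D2:**
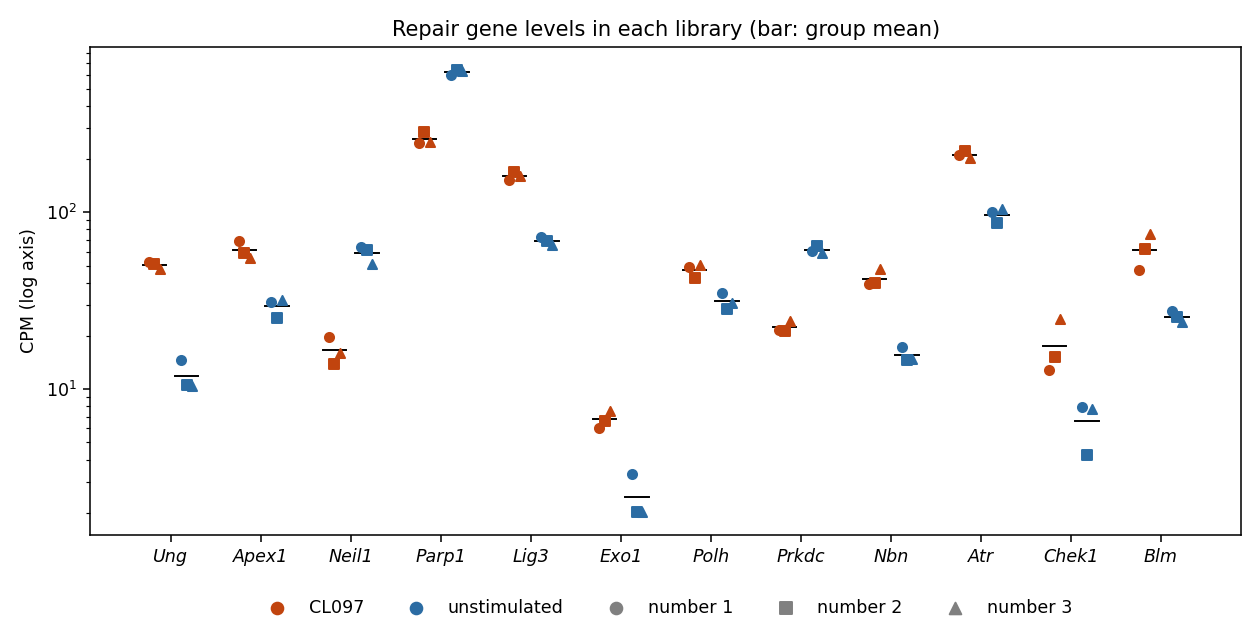
CPM on a log axis of 12 repair genes in each library, CL097 left of unstimulated for each gene, with the replicate number as the marker shape and a bar at the group mean. The genes were picked by the size of their change, so values that lie apart are no separate result. Groups did not overlap in 65.8% of all genes tested. Ung sits at 47.6 to 52.6 CPM in CL097 and 10.4 to 14.5 CPM in unstimulated libraries, Parp1 at 246 to 284 CPM in CL097 and 599 to 643 CPM in unstimulated libraries.

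Promoter sequences show which of these genes share a motif at the start site. RefSeq (GRCm38.p6) gave 33 promoters for 30 of the 37 genes, each running 250 bases before to 50 bases after the start. The E-box CACGTG, which is the same on both strands and is bound by MYC and USF family factors, lay in 4 of the 33 (12.1%), against 7.15% of all promoters and 10.3% of those of tested genes. The 4 genes were Apex1, Lig3, Xrcc5 and Parp1. Of the promoters of repair genes called higher, 3 of 10 held it, and of those called lower 1 of 6. Over all genes it was in 13.7% of promoters of those called higher and 9.35% of those called lower. The 4 sequences are shown because the genes with the motif moved in both directions and because Apex1 alone holds it 3 times. All are on the plus strand, at chr14:50924699-50924998 (Apex1), chr11:82780859-82781158 (Lig3), chr1:72307171-72307470 (Xrcc5) and chr1:180568641-180568940 (Parp1), and capitals mark the E-box.
Apex1: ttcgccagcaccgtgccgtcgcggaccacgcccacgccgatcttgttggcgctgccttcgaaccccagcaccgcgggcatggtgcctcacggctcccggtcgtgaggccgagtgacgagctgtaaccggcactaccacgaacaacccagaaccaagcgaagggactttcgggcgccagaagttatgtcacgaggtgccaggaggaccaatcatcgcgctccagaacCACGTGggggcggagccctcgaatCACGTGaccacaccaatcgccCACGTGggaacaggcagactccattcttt
Lig3: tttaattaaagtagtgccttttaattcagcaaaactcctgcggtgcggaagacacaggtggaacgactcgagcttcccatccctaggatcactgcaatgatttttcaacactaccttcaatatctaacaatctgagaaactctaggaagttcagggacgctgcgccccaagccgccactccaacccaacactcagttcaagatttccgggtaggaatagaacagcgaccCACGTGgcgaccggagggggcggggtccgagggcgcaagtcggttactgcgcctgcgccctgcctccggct
Xrcc5: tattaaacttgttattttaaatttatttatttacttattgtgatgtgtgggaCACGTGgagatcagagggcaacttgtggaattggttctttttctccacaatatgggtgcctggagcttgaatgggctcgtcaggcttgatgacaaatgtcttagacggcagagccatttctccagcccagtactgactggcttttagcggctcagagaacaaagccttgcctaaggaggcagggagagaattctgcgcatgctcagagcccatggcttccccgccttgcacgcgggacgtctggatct
Parp1: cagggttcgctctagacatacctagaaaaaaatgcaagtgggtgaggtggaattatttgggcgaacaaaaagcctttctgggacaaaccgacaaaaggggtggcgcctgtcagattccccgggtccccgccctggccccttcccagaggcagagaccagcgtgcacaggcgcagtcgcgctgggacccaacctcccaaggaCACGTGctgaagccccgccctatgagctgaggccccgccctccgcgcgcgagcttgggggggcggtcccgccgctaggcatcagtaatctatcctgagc
A match of letters does not show that a factor binds there. The motifs TTTNGCGC of E2F (Chek2, Msh3 and Nthl1) and CCGGAAGT of ETS factors (Dclre1c, Lig4, Nthl1 and Ogg1), searched on both strands, were in 9.09% and 12.1% of the repair promoters, beside 2.5% and 8.22% of those of tested genes. Of these 6 genes only Msh3 was called.

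Mismatch repair had 5 genes, of which 1 rose, 2 fell and 2 were not called, with a median log2 fold change of -0.25. In all 5 the groups did not overlap, as in 65.8% of all genes tested. Exo1 (chr1:175880581-175913489, plus strand, 37 exons), the exonuclease that digests the strand holding the error, had 6.05, 6.62 and 7.54 CPM in CL097 libraries and 3.31, 2.02 and 2.01 CPM in unstimulated libraries. Its level was low in both groups but higher in each CL097 library. The increase was 2.82-fold (log2 fold change 1.50, SE 0.26, limma adjusted p = 0.00156). Msh3, the partner that directs recognition to larger loops, fell to 31.9 ± 0.960 CPM in CL097, against 62.5 ± 4.89 CPM in unstimulated libraries (log2 fold change -0.97, SE 0.09, limma adjusted p = 5.61e-05). Msh6, the partner that directs recognition to single mispairs, was not called. It had 82.0 ± 3.54 CPM in CL097 and 97.8 ± 5.30 CPM in unstimulated libraries (log2 fold change -0.25, SE 0.08, adjusted p = 0.0225), short of the fold limit.

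Among the MutL proteins, which act after recognition, Mlh3 fell and Pms2 was not called. Mlh3 had 11.8 ± 3.72 CPM in CL097 and 19.2 ± 1.38 CPM in unstimulated libraries (log2 fold change -0.74, SE 0.22, limma adjusted p = 0.0193). This call was lost without CL097 replicate 2 (adjusted p = 0.0603), without unstimulated replicate 1 (adjusted p = 0.0555) and without unstimulated replicate 3 (adjusted p = 0.0545). Pms2, which carries the nicking activity, had 34.4 ± 2.93 CPM in CL097 and 26.5 ± 2.28 CPM in unstimulated libraries (log2 fold change 0.38, SE 0.11, adjusted p = 0.0215), again short of the fold limit.

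Of the 2 translesion polymerases, Polh rose and Poli was not called. Polh (chr17:46171355-46202645, minus strand, 14 exons), polymerase eta, makes most of the A and T mutations of somatic hypermutation. It had 49.0, 42.7 and 50.5 CPM in CL097 libraries and 35.1, 28.4 and 30.7 CPM in unstimulated libraries. All CL097 values lay above all unstimulated values, and the increase was 1.51-fold (log2 fold change 0.60, SE 0.12, limma adjusted p = 0.00270). Poli, polymerase iota, had 12.4 ± 1.17 CPM in CL097 and 10.9 ± 2.46 CPM in unstimulated libraries (log2 fold change 0.21, SE 0.19).

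In end joining 2 of 8 genes rose, 1 fell and 5 were not called, with a median log2 fold change of 0.13. The subunits of the DNA-dependent protein kinase moved apart. Xrcc5 and Xrcc6 encode Ku80 and Ku70, which form the ring that slides onto broken ends, and Prkdc encodes the catalytic subunit that this ring recruits. Prkdc (chr16:15637866-15842235, plus strand, 89 exons) had 21.6, 21.2 and 24.2 CPM in CL097 libraries and 60.6, 64.3 and 59.2 CPM in unstimulated libraries. The groups were far apart and the spread within each was small. The level was 2.75-fold lower (log2 fold change -1.46, SE 0.10, limma adjusted p = 7.64e-06). Xrcc5 rose to 77.1 ± 12.4 CPM in CL097, against 41.3 ± 4.18 CPM in unstimulated libraries (log2 fold change 0.89, SE 0.13, limma adjusted p = 0.000598). Xrcc6 had 62.9 ± 4.88 CPM in CL097 and 42.6 ± 7.51 CPM in unstimulated libraries (log2 fold change 0.58, SE 0.14, limma adjusted p = 0.00741). Its call was lost without unstimulated replicate 1, at a log2 fold change of 0.44, and with number 1 left out of both groups, at 0.41.

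The remaining end joining genes were not called. Xrcc4, the scaffold for the ligase, missed both limits, at 13.2 ± 0.734 CPM in CL097 and 10.3 ± 0.621 CPM in unstimulated libraries (log2 fold change 0.36, SE 0.14, adjusted p = 0.0519). Trp53bp1, which encodes 53BP1 and shields broken ends from resection during class switching, had 112 ± 5.05 CPM in CL097 and 93.7 ± 7.48 CPM in unstimulated libraries (log2 fold change 0.25, SE 0.08, adjusted p = 0.0312), short of the fold limit. Lig4, the ligase of the pathway, and Dclre1c, which encodes the nuclease Artemis, had log2 fold changes of -0.03 (SE 0.16) and -0.00 (SE 0.14). Nhej1, the stimulating factor XLF, was low, at 1.90 ± 0.685 CPM in CL097 and 2.73 ± 0.472 CPM in unstimulated libraries (log2 fold change -0.58, SE 0.34, adjusted p = 0.184).

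Break sensing and checkpoint genes had the largest share called higher among the roles with more than 3 genes, 4 of 7 with 0 lower, and a median log2 fold change of 0.68. Nbn (chr4:15957925-15992589, plus strand, 18 exons) encodes NBS1, the member of the MRN complex that brings the kinase ATM to a break. It had 39.2, 39.7 and 47.7 CPM in CL097 libraries and 17.2, 14.5 and 14.9 CPM in unstimulated libraries, with no overlap. This was a 2.71-fold increase (log2 fold change 1.44, SE 0.13, limma adjusted p = 3.36e-05). Mre11a, the nuclease of the complex, rose to 70.4 ± 1.71 CPM in CL097, against 44.0 ± 1.45 CPM in unstimulated libraries (log2 fold change 0.68, SE 0.08, limma adjusted p = 0.000143). Rad50, the ATPase of the complex, was not called, with 78.0 ± 0.947 CPM in CL097 and 78.1 ± 7.61 CPM in unstimulated libraries (log2 fold change 0.00, SE 0.09).

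Of the checkpoint kinases, Atr and Chek1 were called higher, while Atm and Chek2 were not called. Atr (chr9:95857597-95951781, plus strand, 68 exons), which responds to single-stranded DNA at stalled forks, had 210, 222 and 204 CPM in CL097 libraries and 100, 86.8 and 104 CPM in unstimulated libraries. The groups did not overlap and the increase was 2.19-fold (log2 fold change 1.13, SE 0.09, limma adjusted p = 1.76e-05). Atm, which responds to broken ends, had 117, 139 and 142 CPM in CL097 libraries and 176, 187 and 180 CPM in unstimulated libraries. All CL097 values lay below the unstimulated ones, yet its log2 fold change of -0.45 (SE 0.09, adjusted p = 0.00307) stayed short of the fold limit. Without CL097 replicate 3 it passed, at -0.51 (adjusted p = 0.00508). Chek1 (chr9:36708482-36727065, minus strand, 26 exons), the kinase that Atr activates, had 12.9, 15.1 and 24.9 CPM in CL097 libraries and 7.94, 4.25 and 7.72 CPM in unstimulated libraries. Its groups were apart but CL097 replicate 3 stood well above the other CL097 values. The log2 fold change was 1.41 (SE 0.32, limma adjusted p = 0.00589). Chek2, the kinase that Atm activates, had 5.61 ± 1.08 CPM in CL097 and 7.27 ± 0.904 CPM in unstimulated libraries and was not called (log2 fold change -0.39, SE 0.21, adjusted p = 0.153).

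In recombination 1 of 3 genes rose and 2 were not called, and here the libraries differed most. Blm (chr7:80454733-80535119, minus strand, 39 exons), the helicase that dissolves joined DNA molecules, had 47.4, 62.3 and 75.2 CPM in CL097 libraries and 27.8, 25.5 and 24.0 CPM in unstimulated libraries. The groups did not overlap, and the increase was 2.36-fold (log2 fold change 1.24, SE 0.17, limma adjusted p = 0.000338). Brca1 and Brca2, which prepare broken ends and load the recombinase, are given by library because of their spread, a choice made after their values were seen. Brca1 had 17.5, 34.6 and 57.7 CPM in CL097 libraries and 23.9, 19.4 and 18.6 CPM in unstimulated libraries. Number 1 was lower with CL097 than without, while numbers 2 and 3 were higher. The log2 fold change came to 0.67 (SE 0.37, adjusted p = 0.156). The differences were -0.44, 0.84 and 1.63 within numbers 1, 2 and 3, the widest range of the 36 genes (2.07). Brca2 had 13.4, 22.1 and 25.5 CPM in CL097 libraries and 19.9, 17.9 and 15.3 CPM in unstimulated libraries, with the same order of numbers. It was not called (log2 fold change 0.15, SE 0.24, adjusted p = 0.602).

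Genes of S phase and mitosis, a list of 20, moved with the same numbers. Their summed level was 2022.5, 3118.5 and 4021.4 CPM in CL097 libraries 1 to 3 and 2129.1, 1663 and 1658 CPM in unstimulated libraries, with median differences of -0.02, 0.83 and 1.20 within numbers 1, 2 and 3. Erythroid genes were also low in number 1, with sums of 64.2, 1403 and 2410 CPM in CL097 and 39.2, 902 and 1052 CPM in unstimulated libraries. Of 4 tested erythroid genes 0 were called, against 3 higher with the replicate block. Their part in the repair gene values was not tested. With number 1 left out of both groups, 3 of 3 recombination genes were called higher, with log2 fold changes of 1.23 for Brca1 (limma adjusted p = 0.00166) and 0.52 for Brca2 (limma adjusted p = 0.0183), and 19 of 20 S phase genes, against 11 of 20 with all libraries. Over all 11844 genes that fit called 50.4%, with 2996 higher and 2972 lower, beside 47.6% with all libraries. The repair genes as a whole changed little, at 13 higher and 6 lower. Without CL097 replicate 1 alone, Brca1 was called at a log2 fold change of 1.12 (adjusted p = 0.00362), and without CL097 replicate 3 alone it was at 0.26 (adjusted p = 0.455). After Brca1, the widest ranges over the numbers were 1.42 for Nhej1, 1.33 for Neil3, 1.31 for Brca2, 1.14 for Chek1 and 1.04 for Exo1, against 0.41 for Ung and 0.04 for Mre11a. Nhej1 did not follow the order of the S phase list, with differences of -0.01, -1.44 and -0.28 in numbers 1, 2 and 3.

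**Figure D3:**
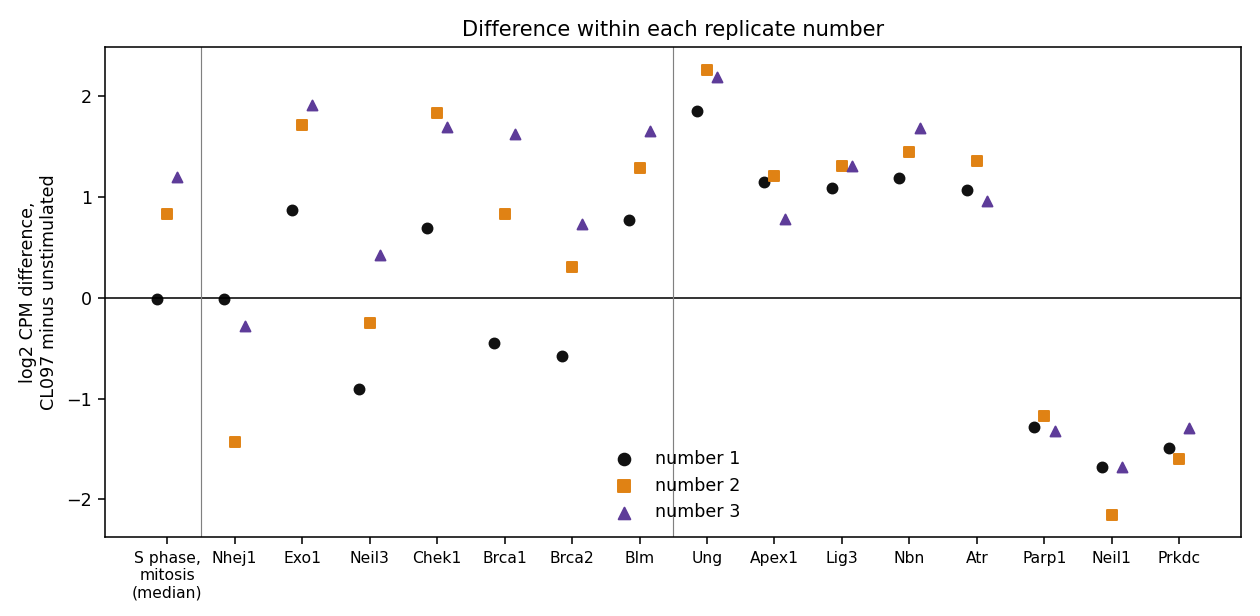
Difference in log2 CPM (CL097 minus unstimulated) within replicate numbers 1, 2 and 3, for the median of the S phase and mitosis list, the 7 repair genes with the widest range over the numbers and 8 that vary less. Brca1 runs from -0.44 in number 1 to 1.63 in number 3, while Ung lies between 1.86 and 2.27.

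Set side by side, the 4 main pathways differed in their medians and not in a uniform direction: base excision 0.07, mismatch -0.25, end joining 0.13 and recombination 0.67 on the log2 scale, beside 0.002 for all genes. Within numbers 1, 2 and 3 the base excision medians were 0.22, 0.11 and 0.06, those of mismatch -0.27, -0.27 and -0.22, those of end joining 0.31, 0.07 and 0.16, and those of recombination -0.44, 0.84 and 1.63. The mismatch medians, here and within each number, were the values of Msh6, and the recombination medians those of Brca1. Neither gene was called. No test was made between pathways, whose genes are not replicates. The break sensing and checkpoint genes gave medians of 0.67, 0.70 and 0.66 in numbers 1, 2 and 3. With the replicate number as a block, 51.7% of all genes tested were called, and the repair genes again gave 12 higher and 6 lower.

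Other genes of these pathways, from lists outside the 37, gave a called share of the same order. Their medians by pathway did not all match those of the 37. Of 96 tested in 8 lists, 29 were called higher and 13 lower (43.8%, beside 47.6% of all genes), with a median log2 fold change of 0.22. The checkpoint list had 7 of 11 higher and 1 lower, with a median of 0.74. End joining had 3 of 6 higher and 0 lower (median 0.49), and base excision 2 of 14 higher and 3 lower (median 0.02). Of the 3 remaining mismatch genes 1 was higher and 1 lower, and of 11 translesion genes 3 were higher and 3 lower. Their medians were 0.15 and -0.15, opposite in sign to the -0.25 and 0.40 of the mismatch and translesion members. Among 25 recombination genes 4 were higher and 2 lower, against 8 and 2 with the replicate block. Their median was 0.30, against 0.67 for the recombination members. The Fanconi list had 3 of 12 higher and 1 lower, and nucleotide excision repair 6 of 14 higher and 2 lower.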

How the data were processed

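Bead-purified B cell RNA was sequenced after poly(A) selection. Tools in the submitters' processing notes are STAR 2.6.1a for mm10, featureCounts of Subread 2.0.1, Trim Galore 0.6.5, FastQC 0.11.7 and limma. The authors quantile-normalized the counts in voom, and the deposited values are log2 CPM of 23420 genes, 1 file per library. The values give no depth, no counting interval, and no change in total RNA per cell.

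Genes with a log2 CPM of at least -1 (0.5 CPM) in at least 3 libraries were kept. A linear model with the group as its only term was fitted in limma 3.58.1 (R 4.3.3) with moderated variances and a mean-variance trend. The step was run on simulated data with noise independent between libraries. That noise lacks the shift shared within a number described below, so the simulation gives no error rate for these libraries. All p-values are two-sided. Library values are given for called genes with an absolute log2 fold change of at least 1 and for the largest change of each role, and, chosen after their values were seen, for Atm, Brca1 and Brca2. Members and lists were chosen with earlier results of these data known, and 1 list is not reported here. Coordinates, counted from 1, and exons are from GENCODE M21 (GRCm38). The exon count of a gene is its number of distinct exon intervals over all annotated transcripts, and its exon length is their union.

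The labels speak of 3 mice without tying a number to a mouse, so p-values measure the spread between these libraries, which may be technical. Deviations from the group means correlated between libraries of the same number by 0.568, 0.326 and 0.458 across 11844 genes, all over 0.1. The numbers were taken as pairs only for differences within a number and for the replicate block. Every printed SE and adjusted p comes from a fit without pairs. Libraries of different numbers reached 0.209 (CL097 3 with unstimulated 2) and 0.172 (CL097 2 with unstimulated 3), so the limit does not separate numbers 2 and 3. Identical deposited values were held by 2655 to 3108 of 17935 varying genes within a number, against 347 to 396 between numbers, as a shift shared by a number would give. Such a shift leaves differences within a number as they are but enters the spread and every fit with 1 library left out. Alternatives were the block, other filters, thresholds, scalings and pseudocounts, and libraries left out.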

Additional observations from a re-analysis of the deposited data

How the results depend on the processing

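The 12 higher and 6 lower calls among repair genes stayed within 11 to 13 and 5 to 7 with any 1 library left out, and all genes called lay between 5192 and 5789, against 5636 with all libraries. The replicate block changed no call of the 36 repair genes and gave 6121 called genes in all. With a log2 fold limit of 1, 3160 genes were called, with 8 repair genes higher and 3 lower. At that limit 0 mismatch genes were lower, 0 translesion genes higher and 0 end joining genes higher. With no fold limit 2 mismatch genes were higher and 1 checkpoint gene lower. Cyclic loess scaling gave a checkpoint median of 0.65. With number 1 left out of both groups, 1 end joining gene and 3 recombination genes were higher, while 50.4% of all genes were called. With 1 library left out, medians ran from -0.0105 to 0.25 for base excision, -0.29 to -0.21 for mismatch, 0.0838 to 0.21 for end joining, 0.26 to 1.12 for recombination and 0.65 to 0.70 for checkpoint, mismatch genes lower from 1 to 2, end joining genes higher from 1 to 2, checkpoint genes lower from 0 to 1 and recombination genes higher from 1 to 2. Several uncalled genes near 0 changed sign. Dclre1c was 0.0062 with equal library medians, Rad50 -0.023 with cyclic loess, and without number 1 Neil3 was 0.0835, Ogg1 0.0055 and Mutyh -0.074. With 1 library left out the log2 fold change ran from -0.53 to 0.17 for Neil3, -0.23 to 0.14 for Ogg1, -0.13 to 0.34 for Mutyh, -0.15 to 0.0702 for Lig4, -0.13 to 0.10 for Dclre1c, -0.078 to 0.0605 for Rad50 and -0.0342 to 0.43 for Brca2. The cause of these changes was not tested. With 3 libraries per group, small differences were not detectable: the median SE over all genes was 0.15.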

Other observations

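Some repair genes start within 1000 bases of a gene on the other strand, and the neighbours did not always move with them. Apex1 rose while its neighbour Osgep fell (log2 fold change -0.78). Mre11a rose together with Ankrd49 (1.12), and Polh with Xpo5 (0.89). Prkdc fell by 1.46 on the log2 scale, while its neighbour Mcm4, a helicase subunit of DNA replication, had 0.44 and was not called (limma adjusted p = 0.0695). Mcm4 is on the S phase and mitosis list. It had 138, 180 and 212 CPM in CL097 libraries 1 to 3 and 161, 113 and 115 CPM in unstimulated libraries, lower with CL097 in number 1 only. Of 13 repair genes with a tested neighbour, 3 pairs had both genes called, 2 of them in the same direction. Over all genes 166 of 763 such pairs had both called, 115 of them (69.3%) in the same direction. These pairs were picked after the values were seen.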
